A study of Mus musculus with 6 samples.

Results

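The 37 genes described here encode enzymes of cholesterol and fatty acid synthesis, the SREBP machinery that controls them, and targets of the liver X receptors (LXR). They were chosen as a list of named genes, with earlier results of these data known. Each was found once among the 55487 genes of the deposited table, and all 37 passed the filter, a mean value of 3 or more across the libraries. The question was whether their expression differs between mouse bone marrow cells that carry wild type MLLT3 and cells that carry MLLT3 with the substitutions K63E and K67E in its YEATS domain. MLLT3 is a reader of acylated histones in elongation complexes.

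Both groups were Kit-positive (cKIT+) cells from mouse bone marrow, sorted after infection with a lentivirus that overexpresses its MLLT3 insert, which was wild type in the WT group (n = 3) and the double mutant in the DM group (n = 3). All 6 libraries shared batch 1, a culture of 8 days in methylcellulose with Flt3 ligand, thrombopoietin, erythropoietin, stem cell factor, GM-CSF and interleukins, and 4-hydroxytamoxifen at 200 nM to delete endogenous Mllt3. The labels name no group without a vector and none with the endogenous gene kept. The allele and the Cre driver are not given in the sources used here, nor is the age of the mice or whether replicates came from separate animals. The p-values therefore measure the spread between these libraries, which may be technical.

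Cholesterol is built from acetyl-CoA through mevalonate, squalene and lanosterol, and fatty acids are built from the same acetyl-CoA through malonyl-CoA. When sterols are scarce, SCAP escorts SREBP factors from the endoplasmic reticulum to the Golgi, where they are cut and released to switch on the genes of both routes, while INSIG proteins hold them back when sterols are plentiful. Oxysterols activate LXR, which raises genes that export cholesterol. In blood cells this balance serves membrane growth in dividing progenitors and the handling of engulfed lipid in macrophages.

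Expression is given as regularized log values (rlog, log2 scale). These are shrunken toward each gene's mean, so a change of a low gene is understated, and depth is unknown because the table holds no counts. Medians over the 18766 tested genes lay between 8.03 and 8.10 in the 6 libraries. Mllt3, the gene both deleted and supplied, measured 12.87, 12.60 and 12.44 in the WT libraries against 12.44, 12.03 and 11.99 in the DM libraries, and these values do not separate the vector's transcripts from the endogenous ones. The groups touched at 12.44, and the change of -0.48 (limma adjusted p 0.0448) was not past the threshold without WT replicate 1 or 2 or DM replicate 2 or 3 (0.0606 to 0.161). Kit lay between 14.29 and 14.90 and Cd34 between 12.02 and 12.64, while Flt3 lay between 4.23 and 4.68. None of the marker genes examined was listed at exactly 0, but this does not show that all were detected. Values went down to -1.97, where Hba-a1 lay in all 6 libraries. Of the 18766 genes, 13.9% were called in either direction (limma, Benjamini-Hochberg adjusted p under 0.05), 4.71% lower and 9.2% higher in DM. The groups did not overlap for 35.8%. Of all called genes, 66.1% were higher in DM, and 51.3% were after quantile normalization.

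Genes of the cholesterol and fatty acid routes were mostly lower in DM, and the LXR targets that export cholesterol were higher. Of the 37 members, 20 (54.1%) were called, 17 lower and 3 higher in DM, beside the 13.9% of all tested genes. The 3 higher ones were Me1, Abca1 and Abcg1. The 37 changes ran from -1.02 in Fdps to 0.67 in Abcg1 with a median of -0.26, beside a median of 0.01 over all genes tested. A lower mean in DM was found for 30 of the 37, against 48.4% of all tested genes. For 26 members, among them all 20 called ones, no DM value overlapped a WT value, where the background was 35.8%. Because the list was chosen with earlier results known, these shares describe the members and do not test an enrichment.

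**Figure D1:**
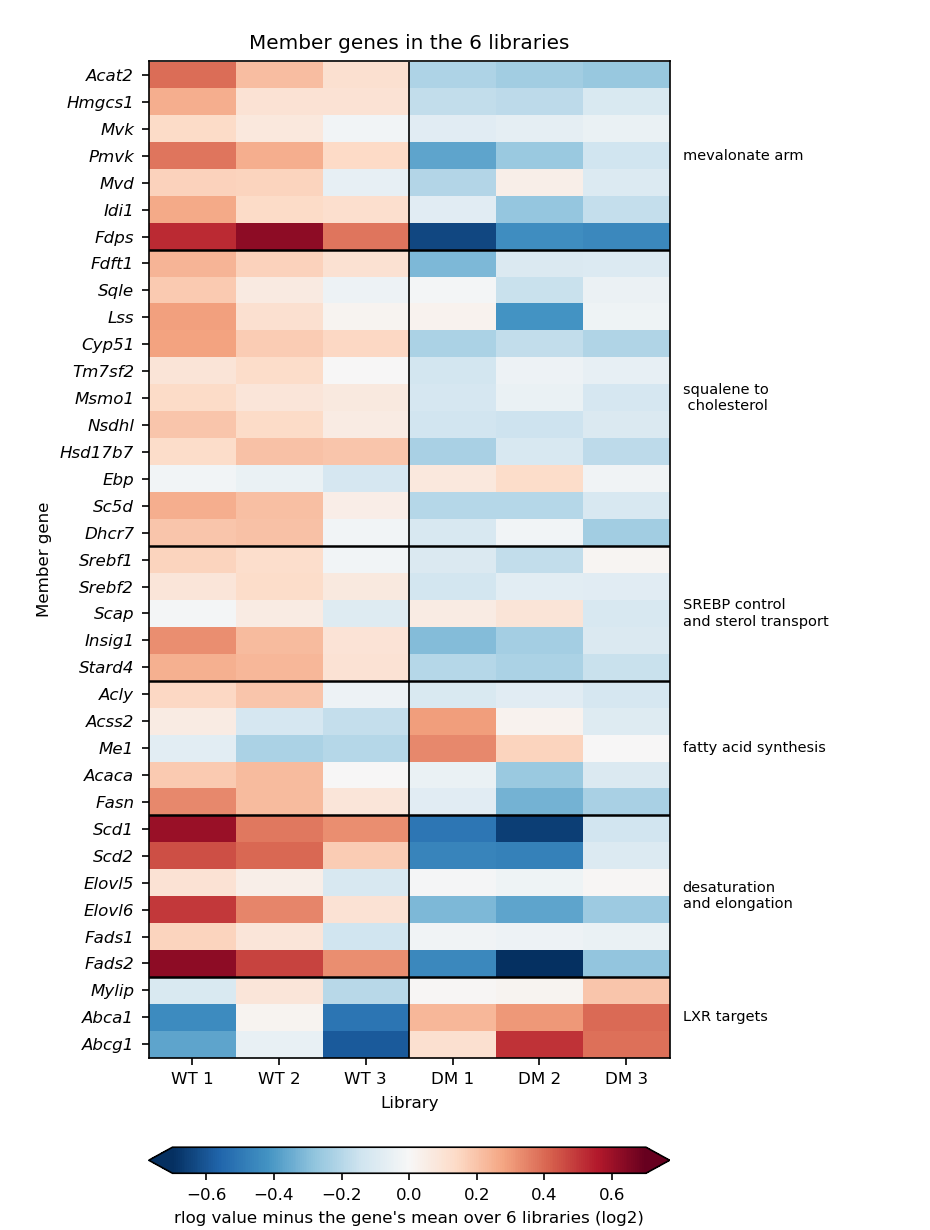
Each row is a member gene and each column a library, and the colour gives the rlog value minus the gene's own mean over the 6 libraries (log2), with values beyond 0.7 in either direction at the end of the scale. Rows of the 10 called cholesterol enzymes are mostly red in the WT columns and blue in the DM columns. Nsdhl and Sc5d are near white in WT replicate 3. Abca1 and Abcg1 are red in DM and, in WT replicate 2, near white.

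The number of called members depended on single libraries, since 12 were called without WT replicate 1 and 13 without DM replicate 2. Of the 20, 12 were called in every one of the 12 alternative fits, and these were Acat2, Pmvk, Fdps, Cyp51, Hsd17b7, Insig1, Stard4, Scd1, Scd2, Elovl6, Fads2 and Abca1. WT replicate 3 had the lowest WT value of 34 of the 37 members, against 47.5% of all tested genes. WT replicate 1 had the highest WT value of 26 members, against 24.4%. In bulk libraries, fewer cells of a type and less RNA per cell cannot be told apart.

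The upstream sequence of members that moved is shown for the SREBP, NF-Y and Sp1 motifs that sterol genes are known for. Windows of 300 bases, from 250 before to 50 after an annotated start, came from RefSeq on GRCm38.p6 and were found for 29 of the 37 members. Those without a window were Fdps, Fdft1, Sqle, Stard4, Scd1, Scd2, Fads1 and Abcg1. The 250 bases before the start are printed for 3 called members in which these 250 bases hold no annotated exon: Hmgcs1 (chr13:119690101-119690350, plus strand) and Pmvk (chr3:89454291-89454540, plus strand), which fell, and Abca1 (chr4:53159896-53160145, minus strand), which rose. Capitals mark each match on either strand to the sterol regulatory element (TCACNCCAC), the NF-Y motif (CCAAT), the Sp1 motif (GGGCGG), the E-box (CACGTG) or the nuclear receptor site (AGGTCA), and each sequence runs 5′ to 3′ on the gene's strand.
Hmgcs1: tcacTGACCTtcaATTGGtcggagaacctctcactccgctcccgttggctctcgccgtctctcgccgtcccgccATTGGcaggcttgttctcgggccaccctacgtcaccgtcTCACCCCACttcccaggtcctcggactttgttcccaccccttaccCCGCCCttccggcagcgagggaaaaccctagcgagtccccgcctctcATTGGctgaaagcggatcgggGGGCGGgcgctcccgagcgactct
Pmvk: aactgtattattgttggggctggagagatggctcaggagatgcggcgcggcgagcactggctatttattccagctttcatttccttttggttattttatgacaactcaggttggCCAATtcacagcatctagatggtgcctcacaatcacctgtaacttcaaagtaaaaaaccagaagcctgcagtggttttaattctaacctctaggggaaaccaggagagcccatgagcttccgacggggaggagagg
Abca1: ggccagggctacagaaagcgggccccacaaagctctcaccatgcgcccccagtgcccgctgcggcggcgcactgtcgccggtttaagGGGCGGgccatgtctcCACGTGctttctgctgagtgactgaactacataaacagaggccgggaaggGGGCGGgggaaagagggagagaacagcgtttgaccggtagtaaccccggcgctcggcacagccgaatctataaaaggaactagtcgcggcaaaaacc

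In the Hmgcs1 window the sterol regulatory element lay from -137 to -129, counted from the annotated start. This 9-letter motif was found in 1 of the 29 members (3.45%), beside 1.43% of the 12349 tested genes with a window. The NF-Y motif, the binding sequence of a factor that works beside SREBP, was in 23 of 29 members (79.3%) against 42.4% of tested genes. The Sp1 motif was in 24 (82.8%) against 63.8%. Within the members the NF-Y motif was in 9 of 12 called lower and in 13 of 15 not called, and the Sp1 motif gave the same counts. The E-box was in 7 of 29 (24.1%), against 11.1%, and the nuclear receptor site in 5 (17.2%), against 15.4%. Motifs can overlap each other, and a match is a match of letters only. Only exact matches were marked and counted, so any site with a variant sequence was missed, also in the Abca1 window.

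The mevalonate arm turns acetyl-CoA into farnesyl diphosphate. All 7 of its genes had a lower mean in DM and 5 were called, with changes from -1.02 to -0.12 and a median of -0.34. Fdps (ENSMUSG00000059743.12; chromosome 3, 89093588 to 89101959, minus strand) encodes farnesyl diphosphate synthase, at the branch point toward sterols and protein prenylation. Listed from replicate 1 to 3, here and below, its rlog values were 7.77, 7.87 and 7.62 in WT, against 6.61, 6.81 and 6.80 in DM. All 3 DM libraries were well below all 3 WT libraries. The change was -1.02 (SE 0.0885, limma adjusted p 0.000233), the largest fall among the 37, and on the linear scale the mean level dropped by 50.6%. This value is uncertain, because 91.4% of its longest coding transcript is matched at 95% identity or more by transcripts of 6 other genes, so reads may be lost or shared.

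Pmvk (ENSMUSG00000027952.16; chromosome 3, 89454541 to 89469013, plus strand) encodes phosphomevalonate kinase and has no such copy. Its values were 9.87, 9.75 and 9.63 in WT against 9.13, 9.24 and 9.35 in DM. The groups were apart, and the change was -0.51 (SE 0.0848, limma adjusted p 0.00629). Acat2 (ENSMUSG00000023832.14; chromosome 17, 12942890 to 12960747, minus strand), the cytosolic thiolase that opens the route, had 9.52, 9.35 and 9.24 in WT against 8.91, 8.89 and 8.87 in DM. The DM libraries lay close together and below every WT library, with a change of -0.48 (SE 0.0806, adjusted p 0.00641). This value is uncertain too, since 65.6% of the transcript is matched by Acat3 and Tcp1.

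Hmgcs1 (ENSMUSG00000093930.2; chromosome 13, 119690379 to 119708260, plus strand) makes the HMG-CoA from which mevalonate is formed. Its values of 12.34, 12.18 and 12.18 in WT were all above those of 11.91, 11.90 and 11.97 in DM. The change was -0.30 (SE 0.0718, limma adjusted p 0.0214). Idi1 (ENSMUSG00000058258.14; chromosome 13, 8885501 to 8892451, plus strand), the isopentenyl diphosphate isomerase, had 9.54, 9.41 and 9.40 in WT against 9.20, 9.01 and 9.11 in DM. The groups did not overlap and the change was -0.34 (SE 0.0761, adjusted p 0.0165), with 33.3% of the transcript matched by other genes. Without WT replicate 1, without DM replicate 2 or without DM replicate 3, Hmgcs1 and Idi1 were no longer called (adjusted p from 0.0552 to 0.107), nor was Hmgcs1 without DM replicate 1 (0.0682).

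The kinase gene Mvk and the decarboxylase gene Mvd stand on either side of Pmvk in the route and did not pass the threshold. Mvk had 9.71, 9.65 and 9.56 in WT against 9.50, 9.52 and 9.53 in DM, a difference of -0.12 (95% interval -0.27 to 0.02, limma adjusted p 0.245). For Mvd the values were 10.52, 10.51 and 10.30 in WT against 10.15, 10.40 and 10.26 in DM, a difference of -0.17 (-0.37 to 0.02, adjusted p 0.218). Only the Mvd groups overlapped, since DM replicate 2 exceeded WT replicate 3.

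**Figure D2:**
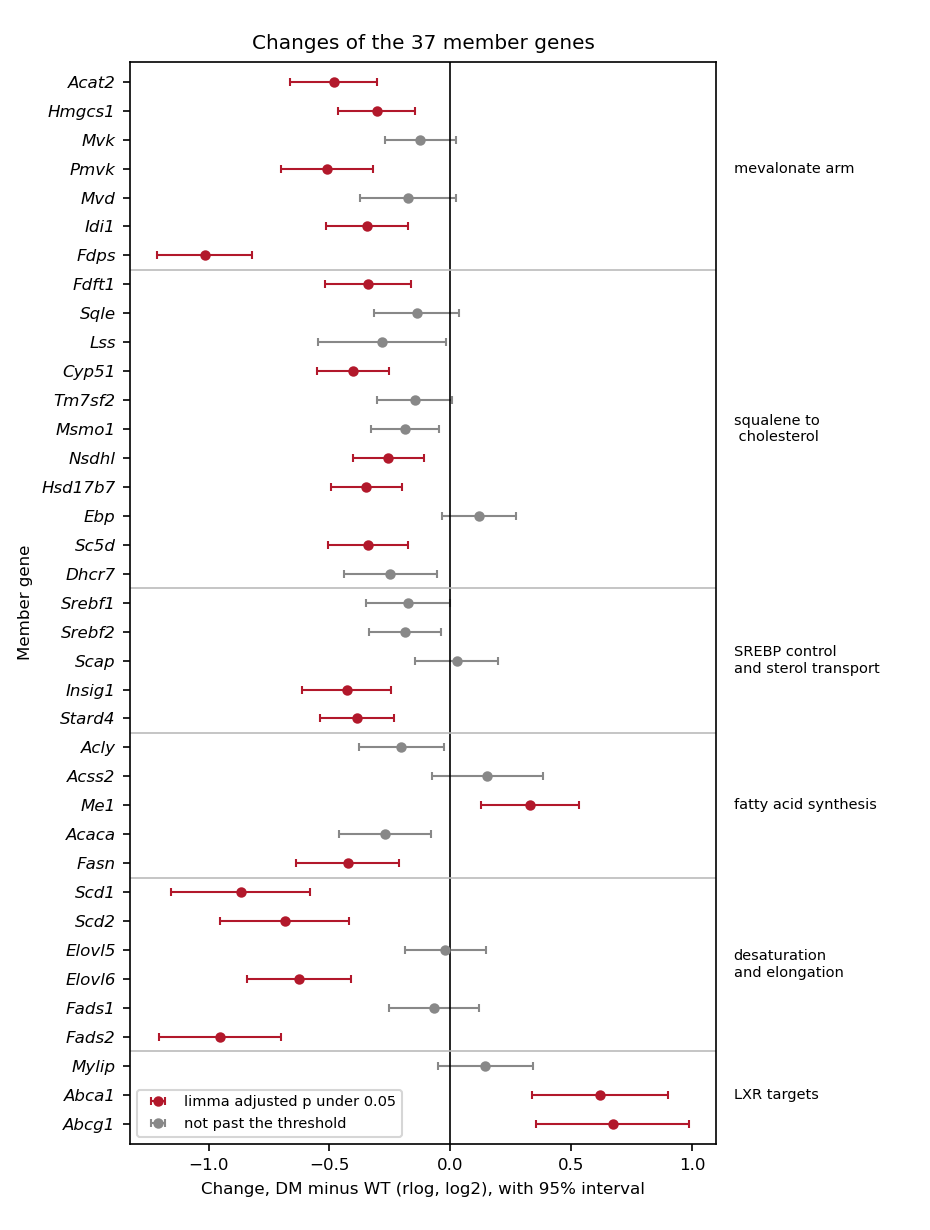
Points are the changes of the 37 member genes (DM minus WT, rlog, log2), bars are 95% intervals of limma, and red marks an adjusted p under 0.05 over all genes tested. The farthest points to the left are Fdps at -1.02, Fads2 at -0.95 and Scd1 at -0.87, and the farthest to the right are Abcg1 at 0.67 and Abca1 at 0.62.

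From squalene to cholesterol, 10 of 11 genes had a lower mean in DM and 5 were called, all lower, with changes from -0.40 to 0.12 and a median of -0.26. Fdft1 (ENSMUSG00000021273.11; chromosome 14, 63145150 to 63179578, minus strand) encodes squalene synthase, the step that commits farnesyl diphosphate to sterols. Its values were 10.43, 10.36 and 10.30 in WT against 9.88, 10.09 and 10.10 in DM. Every DM library was below every WT library and DM replicate 1 was the lowest, with a change of -0.34 (SE 0.0789, limma adjusted p 0.0201). Other genes match 54.7% of its transcript, so the value is uncertain. The coordinates of Fdft1 are those of another version of its identifier in GENCODE M21.

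Cyp51 (ENSMUSG00000001467.5; chromosome 5, 4081145 to 4104746, minus strand), the lanosterol demethylase, had 11.67, 11.57 and 11.54 in WT against 11.17, 11.22 and 11.18 in DM. The groups were clearly apart, with a change of -0.40 (SE 0.0667, limma adjusted p 0.00626). Exons of Akap9 overlap it on the other strand (166 bases), and the use of strand in counting is not stated. Among the called members, such overlap was also found for Fdft1 (774 bases), Hmgcs1 (557), Idi1 (323), Elovl6 (34) and Me1 (30). Hsd17b7 (ENSMUSG00000026675.12; chromosome 1, 169949535 to 169969241, minus strand) encodes a reductase of the demethylation steps. Its values were 9.44, 9.52 and 9.51 in WT against 9.09, 9.20 and 9.14 in DM, again without overlap, and its change was -0.35 (SE 0.0657, adjusted p 0.00936).

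Nsdhl (ENSMUSG00000031349.4; chromosome X, 72918557 to 72958514, plus strand), a dehydrogenase of the same steps, had 10.08, 10.02 and 9.94 in WT against 9.75, 9.74 and 9.78 in DM. The change was -0.26 (SE 0.0656, limma adjusted p 0.0296), and no DM value reached a WT value. Sc5d (ENSMUSG00000032018.14; chromosome 9, 42251595 to 42264256, minus strand), a sterol desaturase near the end of the route, had 10.37, 10.32 and 10.16 in WT against 9.91, 9.92 and 10.00 in DM. It changed by -0.34 (SE 0.0741, adjusted p 0.0155). The calls of Fdft1, Nsdhl and Sc5d were lost without WT replicate 1 (adjusted p from 0.075 to 0.134), those of Fdft1 and Nsdhl without DM replicate 1 (0.0666 and 0.0866), those of Nsdhl and Sc5d without DM replicate 2 (0.112 and 0.0663), and that of Nsdhl without DM replicate 3 (0.0778) or without the filter on the mean (0.0979).

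The other 6 genes of this stretch were not past the threshold. Differences were -0.28 for Lss (lanosterol synthase, limma adjusted p 0.15), -0.25 for Dhcr7 (the final reductase, 0.0863), -0.19 for Msmo1 (a methylsterol oxygenase, 0.0787), -0.15 for Tm7sf2 (a sterol reductase, 0.196) and -0.14 for Sqle (squalene epoxidase, 0.265). Lss had the widest interval of them (-0.55 to -0.02), and its DM replicate 2 was at 10.79 against 11.24 and 11.18 in the other DM libraries. Ebp, a sterol isomerase, was the 1 gene with a higher mean in DM, at 10.58, 10.63 and 10.48 against 10.48, 10.46 and 10.39 in WT, a difference of 0.12 (-0.03 to 0.27, adjusted p 0.269). The Msmo1 and Tm7sf2 groups did not overlap, whereas those of Lss, Dhcr7, Sqle and Ebp did. Dhcr7 was called without WT replicate 3 (-0.32, adjusted p 0.0308).

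Over the 18 enzymes from Acat2 to Dhcr7, 10 were called, all lower, and the mean deviation from each gene's 6-library mean was 0.23, 0.17 and 0.07 in WT against -0.17, -0.15 and -0.14 in DM. Proliferation genes moved in the same direction. Of 16 listed, 13 were called, all lower in DM (8 without WT replicate 1 and 8 without DM replicate 3), and their mean deviation was 0.26, 0.24 and 0.09 in WT against -0.10, -0.22 and -0.28 in DM. Taken as the log2 of their summed linear values, the proliferation genes ranged from 16.43 to 16.58 in WT and from 16.04 to 16.23 in DM. WT replicate 3 was the lowest WT library in both sets, a place it had for 47.5% of all tested genes. The part of proliferation in the change of the sterol genes was not tested.

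Among the 5 genes of SREBP control and sterol transport, Insig1 and Stard4 fell and the factors themselves did not pass the threshold. Insig1 (ENSMUSG00000045294.11; chromosome 5, 28071363 to 28078662, plus strand) encodes the retention protein and is itself a known SREBP target. Its values were 11.17, 11.06 and 10.94 in WT against 10.54, 10.60 and 10.74 in DM. The highest DM library stayed below the lowest WT library, and the change was -0.43 (SE 0.0828, limma adjusted p 0.0101). Stard4 (ENSMUSG00000024378.9), a soluble carrier of cholesterol, had 11.74, 11.72 and 11.59 in WT against 11.29, 11.27 and 11.34 in DM. The DM libraries were tightly grouped below WT, with a change of -0.39 (SE 0.0686, adjusted p 0.00774).

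Srebf2, which encodes the SREBP of the sterol route, had 12.82, 12.87 and 12.80 in WT against 12.61, 12.66 and 12.66 in DM, a difference of -0.19 (95% interval -0.33 to -0.04, limma adjusted p 0.0947). Its groups did not overlap. Srebf1, whose product favours the fatty acid genes, had 11.96, 11.93 and 11.79 in WT against 11.71, 11.63 and 11.82 in DM, a difference of -0.17 (adjusted p 0.173), and DM replicate 3 lay above WT replicate 3. Scap, the escort, had a difference of 0.03 (-0.14 to 0.20, adjusted p 0.842), whose sign changed with the scaling and with the libraries left out. These are transcript levels, and the cutting of SREBP proteins is not measured by them.

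Fatty acid synthesis proper gave a mixed picture, with 1 gene called lower and 1 called higher of 5. Fasn (ENSMUSG00000025153.9; chromosome 11, 120805846 to 120824547, minus strand), the fatty acid synthase, had 13.97, 13.85 and 13.72 in WT against 13.55, 13.30 and 13.41 in DM. All DM libraries were lower, and the change was -0.42 (SE 0.095, limma adjusted p 0.0171). Me1 (ENSMUSG00000032418.15; chromosome 9, 86581371 to 86695953, minus strand), the cytosolic malic enzyme that yields NADPH, had 9.21, 9.07 and 9.09 in WT against 9.62, 9.44 and 9.29 in DM. DM replicate 1 was the highest of them, and the change was 0.33 (SE 0.0904, adjusted p 0.0384).

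The call of Fasn was lost without WT replicate 1, DM replicate 2 or DM replicate 3 (limma adjusted p from 0.0643 to 0.0817). That of Me1 was lost when any library other than DM replicate 3 was left out (0.0652 to 0.121), after quantile normalization (0.0881) or centring (0.0584) and without the filter on the mean (0.0805), and 60.1% of its transcript is matched by other genes. Acaca, the carboxylase that makes malonyl-CoA, had a difference of -0.27 (95% interval -0.46 to -0.08, adjusted p 0.0635) and was called without WT replicate 3 (-0.34, 0.0266). Acly, which splits citrate into acetyl-CoA, had -0.20 (-0.38 to -0.03, 0.124), and likewise passed without WT replicate 3 (-0.27, 0.0436). Acss2, which makes acetyl-CoA from acetate, had 10.46, 10.29 and 10.24 in WT against 10.70, 10.44 and 10.32 in DM, a difference of 0.15 (-0.08 to 0.38, 0.345) with overlapping groups. The groups of Acaca and of Acly did not overlap.

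The desaturases and elongases that finish fatty acids held 4 called genes of 6, all lower, with a median change of -0.66. Fads2 (ENSMUSG00000024665.8; chromosome 19, 10062765 to 10101746, minus strand) opens the conversion of the essential fatty acids into long polyunsaturated ones. Its values were 11.75, 11.60 and 11.45 in WT against 10.67, 10.42 and 10.84 in DM. No DM library came near the lowest WT library, and the change was -0.95 (SE 0.114, limma adjusted p 0.00147), a linear level that dropped by 48.3%. Fads1 (ENSMUSG00000010663.5; chromosome 19, 10182888 to 10196877, plus strand), its neighbour and the next desaturase of that route, had 11.48, 11.41 and 11.18 in WT against 11.30, 11.29 and 11.28 in DM. Its DM values lay inside the WT range, and the difference was -0.07 (95% interval -0.25 to 0.12, adjusted p 0.626).

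Scd1 (ENSMUSG00000037071.3; chromosome 19, 44394455 to 44407879, minus strand) introduces the double bond of oleic and palmitoleic acid. Its values were 11.59, 11.36 and 11.31 in WT against 10.48, 10.33 and 10.86 in DM. DM replicate 3 was the highest DM library and still below WT, and the change was -0.87 (SE 0.129, limma adjusted p 0.0042). The paralog Scd2 (ENSMUSG00000025203.6; chromosome 19, 44293674 to 44306864, plus strand) had 14.70, 14.65 and 14.43 in WT against 13.79, 13.78 and 14.16 in DM. The libraries stood in the same order as for Scd1, DM replicate 3 being again nearest to WT, with a change of -0.69 (SE 0.12, adjusted p 0.00729). Near-identical sequence covers 11.4% of the Scd2 transcript, where it matches Scd1.

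Elovl6 (ENSMUSG00000041220.10; chromosome 3, 129532355 to 129638495, plus strand) lengthens saturated and monounsaturated chains. Its values were 10.13, 9.97 and 9.73 in WT against 9.31, 9.26 and 9.38 in DM, with no overlap. The change was -0.63 (SE 0.0968, limma adjusted p 0.00492). Elovl5, which lengthens polyunsaturated chains, had 12.04, 11.98 and 11.82 in WT against 11.93, 11.91 and 11.95 in DM. Its groups overlapped, and the difference was -0.02 (95% interval -0.19 to 0.15, adjusted p 0.877).

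**Figure D3:**
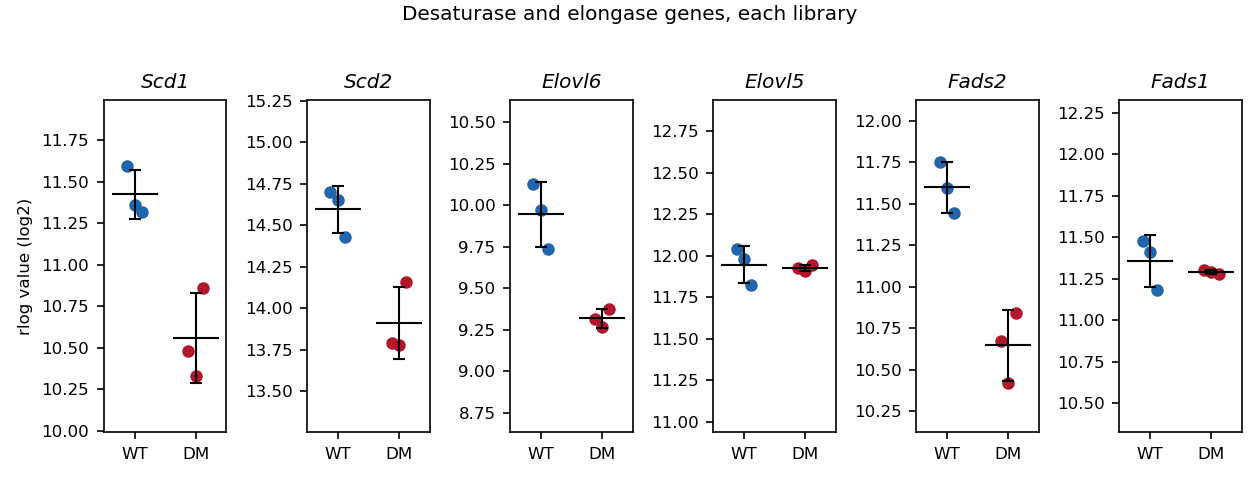
Points are the rlog values of each library (log2) for 6 desaturase and elongase genes, horizontal bars are group means and whiskers are SD (n = 3), and every panel spans 2 log2 units. DM points lie below all WT points for Scd1, Scd2, Elovl6 and Fads2, and within the WT range for Elovl5 and Fads1.

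Differences between genes of related function were taken within each library, for 5 pairs chosen after their values were seen, and are given as a description. An exact permutation test over 20 regroupings gave p 0.1 for each of the 5. It could give no lower value with these group sizes, so it decides nothing. Fads2 minus Fads1 was 0.27, 0.19 and 0.26 in WT against -0.63, -0.87 and -0.44 in DM, a shift of -0.89. Elovl6 minus Elovl5 shifted by -0.61, from -1.91, -2.01 and -2.09 in WT to -2.61, -2.64 and -2.57 in DM. Scd1 minus Scd2 shifted by -0.18, with -3.11, -3.29 and -3.12 in WT and -3.31, -3.45 and -3.30 in DM. In each of these 3 pairs every DM library was below every WT library.

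Of the 3 members listed as LXR targets, the exporters Abca1 and Abcg1 rose and Mylip did not pass the threshold. These 3 do not stand for all genes that LXR controls. The other members were grouped by role and not sorted by LXR control. Of the 37 members, 30 had a lower mean in DM, none of them among these 3. Abca1 (ENSMUSG00000015243.4; chromosome 4, 53030787 to 53159895, minus strand) moves cholesterol and phospholipid onto lipid-poor apolipoproteins. Its values were 9.76, 10.22 and 9.69 in WT against 10.43, 10.50 and 10.59 in DM. WT replicate 2 was the highest WT library and was still below DM, and the change was 0.62 (SE 0.126, limma adjusted p 0.0121). Abcg1 (ENSMUSG00000024030.7; chromosome 17, 31057675 to 31117988, plus strand), which exports cholesterol to mature lipoproteins, had 13.57, 13.89 and 13.36 in WT against 14.06, 14.45 and 14.33 in DM. The groups did not overlap and the change was 0.67 (SE 0.143, adjusted p 0.0142).

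Without WT replicate 1, DM replicate 2 or DM replicate 3, Abcg1 was not called (changes of 0.65, 0.58 and 0.65, limma adjusted p from 0.0512 to 0.0581). Mylip, the ubiquitin ligase that removes lipoprotein receptors, had 10.01, 10.20 and 9.92 in WT against 10.12, 10.13 and 10.31 in DM. Its groups overlapped, and the difference was 0.15 (95% interval -0.05 to 0.34, adjusted p 0.299). The within-library difference of Abca1 minus Mylip shifted by 0.47 and that of Abcg1 minus Mylip by 0.53, the remaining 2 of the 5 pairs.

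Macrophage markers moved with these exporters. Of 12 listed, 11 were tested and 10 were called, all higher in DM, and the other 2 were C1qa, under the filter, and C1qb, with values near 3 in both groups. The log2 of the summed linear levels of the list ranged from 18.23 to 18.95 in WT and from 19.28 to 19.65 in DM. The mean deviation of the macrophage markers was -0.41, -0.05 and -0.57 in WT and 0.24, 0.50 and 0.28 in DM, while that of the 3 LXR targets was -0.31, 0.02 and -0.43 and 0.12, 0.28 and 0.33. WT replicate 2 was the highest WT library in both lists, a place it had for 44.1% of all tested genes. Neutrophil markers mostly went the other way, with 11 of 13 called, all lower. Their log2 summed level ranged from 18.61 to 19.05 in WT and from 17.29 to 18.12 in DM. Mmp8 was the 1 marker of that list with a higher mean in DM (0.50, limma adjusted p 0.0521), and its groups did not overlap. The part of the macrophages and neutrophils in the changes of the members was not tested.

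**Figure D4:**
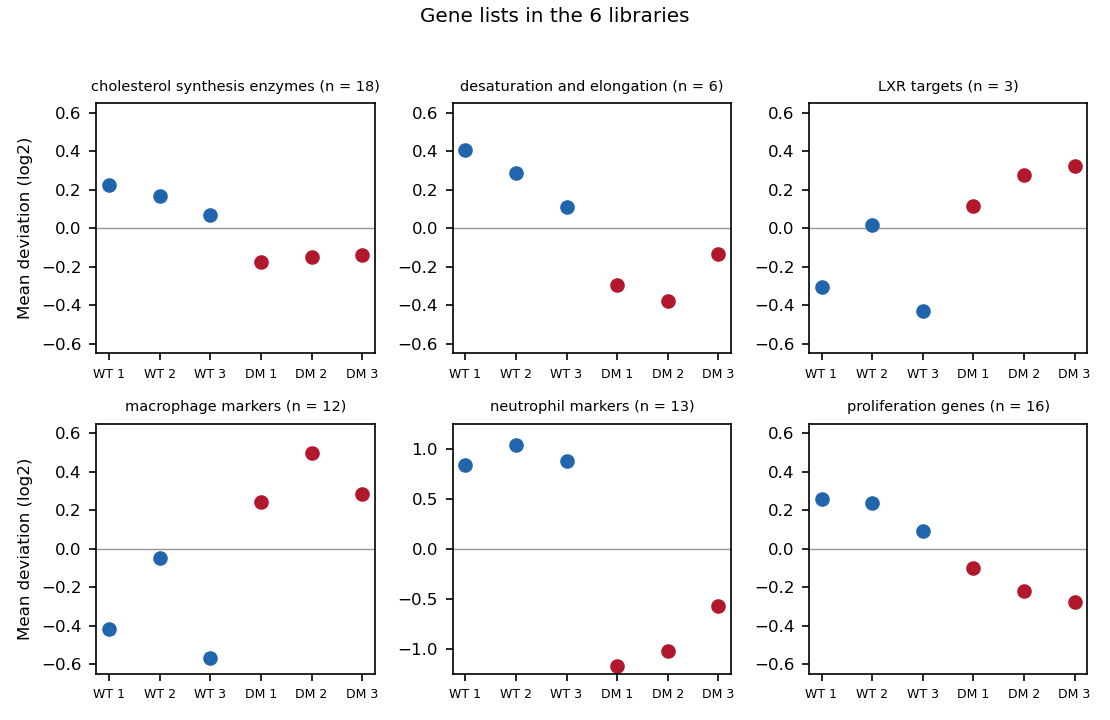
Each point is a library's mean deviation from the genes' 6-library means (log2) over a gene list, WT in blue and DM in red, on a wider axis for the neutrophil markers. Means of the cholesterol synthesis enzymes, desaturation genes, neutrophil markers and proliferation genes are higher in all WT libraries. Those of the 3 members listed as LXR targets and of the macrophage markers are higher in all DM libraries.

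Markers of other cell types also differed between the groups. Of 3 lymphoid markers tested, 2 were called. Il7r, a cytokine receptor, had 11.50, 11.94 and 11.25 in WT against 12.28, 12.47 and 12.30 in DM, a rise of 0.79 (limma adjusted p 0.0094) that was called in all 12 alternatives. Cd79b changed by -0.27 (adjusted p 0.0166) and was not called without DM replicate 1 (0.0515) or DM replicate 2 (0.0637). All 5 megakaryocyte markers had a higher mean in DM and 2 were called. These were Vwf (0.54, adjusted p 0.00667) and Gp1ba (0.55, 0.017), the latter lost without DM replicate 2 (0.0625) and after quantile normalization (0.0611). The log2 summed level of the megakaryocyte list ranged from 14.18 to 14.39 in WT and from 14.46 to 14.83 in DM. Mast cell and basophil markers had 0 of 7 called with limma (2 at an unadjusted p under 0.05), with a log2 summed level from 18.71 to 19.09 in WT and from 18.74 to 19.21 in DM. Erythroid markers had 0 of 6 tested genes called with limma (0 at an unadjusted p under 0.05). Of 7 progenitor markers 2 were called, both lower. Myb changed by -0.65 (adjusted p 0.0127) and was lost without DM replicate 2 (0.0529) or DM replicate 3 (0.0526). Flt3 changed by -0.30 (0.0494) and was called in 2 of the 11 alternatives that tested it, with an adjusted p from 0.101 to 0.163 without any library other than WT replicate 2. Of the cell types outside blood that make much lipid, the adipocyte and hepatocyte markers Adipoq, Lep, Alb and Ttr were under the filter, and the adipocyte marker Plin1, with a mean of 3.35, had a difference of -0.10 (adjusted p 0.196). The stromal gene Pdgfrb was called lower (-0.36, adjusted p 0.00997) in all 12 alternatives. Col1a1 (-0.37, 0.043) lost its call in 8 of them, among them each library left out other than WT replicate 2 (0.0608 to 0.126). The part of these cell types in the changes of the members was not tested.

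Further genes of these pathways were read from 3 lists, of which 53 of 57 genes were tested. Of these, 14 were called (26.4%, beside 13.9% of all tested genes), 4 lower and 10 higher. Of 13 genes of sterol and isoprenoid synthesis and SREBP processing, 1 was called (7.69%). A higher mean in DM was found for 8 of the 13, and the median change was 0.08. The called gene was Lbr, the lamin B receptor, which is also a sterol reductase and carries the same reaction as Tm7sf2. Its values were 12.46, 12.45 and 12.42 in WT against 11.82, 11.54 and 11.71 in DM. The DM libraries were all lower, and the change was -0.76 (SE 0.0807, limma adjusted p 0.00079).

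Of 15 genes of sterol storage, trafficking and LXR, 6 were called (40%) and all 6 were higher in DM. A lower mean in DM was found for 4 of the 15, and Lpcat3 was not called (0.02, limma adjusted p 0.893). Nr1h3, which encodes LXR alpha, had 8.57, 8.84 and 8.32 in WT against 9.20, 9.52 and 9.11 in DM, and its groups did not overlap. It changed by 0.70 (SE 0.139, limma adjusted p 0.0108). Npc1, which lets cholesterol out of lysosomes, changed by 0.63 (adjusted p 0.00756), and Nceh1, a cholesteryl ester hydrolase, by 0.60 (0.00547). Ch25h, which makes an oxysterol, changed by 0.66 (0.0455) but lost its call in 9 of the 12 alternatives, among them each library left out other than WT replicate 2 (0.0764 to 0.145). The other called genes, Npc2 and Soat1, changed by 0.55 and 0.58, and Soat1 was not called without WT replicate 1 (0.56, adjusted p 0.0534) or DM replicate 2 (0.51, 0.0583). In all 6 genes, as in the 10 called macrophage markers, WT replicate 2 was the highest WT library. It was so for 44.1% of all tested genes.

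Of 29 genes of other fatty acid and glycerolipid synthesis, 25 were tested and 7 called (28%), 3 lower and 4 higher. Dgat2, which completes triglycerides, had 10.15, 10.53 and 10.50 in WT against 9.18, 9.40 and 9.79 in DM. All DM values were below WT, and the change was -0.94 (SE 0.15, limma adjusted p 0.00569). Agpat2, an acyltransferase of the same route, changed by -0.45 (adjusted p 0.00921), and the acyl-CoA synthetase gene Acsl3 by -0.43 (0.0138). Acsl1, another acyl-CoA synthetase, changed by 0.47 (0.0265). Acsl3 lost its call without WT replicate 1 or DM replicate 2 (0.0512 and 0.0504), and Acsl1 without WT replicate 1 or 3 or DM replicate 1 or 2 (0.0615 to 0.105).

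Near-identical transcripts of other genes covered at least 25% of the longest coding transcript in 6 members, which were Acat2, Idi1, Fdps, Fdft1, Me1 and Acaca. Matches on either strand counted, also those of genes that overlap a member at its own locus, such as Gm43738 for Fdps and Ctsb for Fdft1. Among the other 31 members, a subset taken after the data had been seen, 15 (48.4%) were called, 13 lower and 2 higher, with a median change of -0.20.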

How the data were processed

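Total RNA of 6 libraries was sequenced after depletion of abundant transcripts, per the labels' protocols. The authors deposited regularized log values on the log2 scale, as read from the table's name and values. Per the submitters' processing notes, cutadapt 2.6, STAR 2.7.3, DESeq2 1.30.0 and the build mm10 were used. The counting tool, strand setting and annotation are not given in the sources used here.

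The 142699 lines were merged into 55487 genes. Over the 18766 genes whose mean reached 3, limma 3.58.1 in R 4.3.3 (lmFit, eBayes with a mean-variance trend) compared DM with WT, two-sided, with Benjamini-Hochberg adjustment over all of them and a threshold of 0.05. Members and lists were chosen with earlier results of these data known. Every member was described, with called ones in full, and up to 4 called genes with the largest changes were named from each further pathway list. Coordinates are from GENCODE M21 (GRCm38). Near copies were found with blastn 2.17.0 (at least 95% identity over 75 bases). Promoters were shown for called members, those with a sterol regulatory element first and then by size of change, and left out where transcribed. The alternatives were no filter, a mean of at least 5, no trend, quantile normalization, centring on the median, a replicate block and each library left out. The test was checked on simulated data with independent noise for each gene. That check does not cover shifts shared by many genes of a library. Figures were drawn with matplotlib 3.10.9.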

Additional observations from a re-analysis of the deposited data

How the results depend on the processing

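All 20 called members kept their direction in all 12 alternatives. The counts moved with single libraries. Leaving out 1 library at a time gave from 1119 to 3475 called genes, from 12 to 22 called members, and from 7 to 18 called genes of the further pathway lists. The median change of the members ran from -0.32 to -0.22 in these fits, and was -0.34 after quantile normalization, where 28 members were called, 26 of them lower. There Mvk, Mvd, Sqle, Msmo1, Dhcr7, Srebf1, Srebf2, Acly and Acaca were added and Me1 was lost, and 51.3% of 2654 called genes were higher. Centring on the library median gave 24 called members. Scap changed sign after quantile normalization (-0.0691), after centring (-0.0056), without WT replicate 3 (-0.0105) and without DM replicate 2, over a range of -0.0125 to 0.0892 with 1 library left out. Elovl5 did so without WT replicate 1 (0.0253), over a range of -0.0831 to 0.0253. The cause was not tested. Deviations of libraries with the same replicate number correlated at 0.491, 0.116 and 0.041. The replicate 1 libraries correlated at -0.336 to -0.161 with those of other numbers in the other group. WT replicate 3 correlated best with DM replicate 2 (0.124), and DM replicate 3 with WT replicate 2 (0.077). On these small differences alone, the number was not taken as a pairing. With a replicate block, 3742 genes, 25 members and 20 genes of the further lists were called. Count-based tests were not run, since the table holds no counts, and depth limits are unknown.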
